A study of Mus musculus with 6 samples.

Results

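Integrin subunits of muscle cells were followed through an experiment in which MyoD was switched on in C2C12 cells, a mouse myoblast line whose cells fuse into myotubes when serum is lowered. The 10 genes were Itga3, Itga4, Itga5, Itga6, Itga7, Itga11 and Itgav, which encode α subunits, and Itgb1, Itgb3 and Itgb5, which encode β subunits. They were found by gene symbol in the platform annotation, among 19505 genes with a named probe set. The list was drawn up with earlier results of these data known. Each of the 10 had 1 probe set, and all 10 lay above background on all 6 arrays. A further 14 integrin subunit genes were measured and are described after them.

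RNA was hybridized to 6 Clariom S arrays for mouse, and each of the 3 groups had 2 of them. It was taken after 72 h of differentiation in medium with 2% horse serum. MyoD + Dox cells carried a lentivirus with a doxycycline-inducible MyoD cDNA and received doxycycline (1 µg/mL in the methods). MyoD - Dox cells carried the same virus and received no drug. Non-transduced + Dox cells had no virus and received the drug, at a dose that the sources used here do not name for them. Transduced cells were selected with blasticidin and are not described as a single clone. MyoD + Dox and MyoD - Dox cells thus differed in doxycycline as well as in MyoD, and MyoD - Dox and Non-transduced + Dox cells differed in virus, selection and drug together. No source states whether paired arrays stem from independent cultures. The p-values therefore describe the spread between these samples alone, and that spread may be technical.

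Integrins are receptors made of 1 α and 1 β subunit that span the cell membrane, bind extracellular matrix or other cells on the outside and are coupled to actin on the inside by talin, kindlin, parvin and related proteins. The α subunit largely sets the ligand: α7, α6 and α3 pair with β1 as laminin receptors, α5β1 binds fibronectin, α4β1 binds fibronectin and VCAM-1, α11β1 binds collagen, and αv pairs with β3, β5 or β1 to bind ligands with an RGD motif. In skeletal muscle α7β1 is the main laminin-binding integrin of the fiber and is concentrated at myotendinous and neuromuscular junctions, and loss of ITGA7 in humans causes a congenital myopathy.

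Signals are given as log2 of the deposited intensity, and no probe set's level is set against another's. Myod1 checks the labels of the groups. Its log2 signal was 11.51 and 12.54 on the MyoD + Dox arrays, 8.996 and 7.91 on the MyoD - Dox arrays and 8.72 and 10.68 on the Non-transduced + Dox arrays. The MyoD + Dox arrays were thus the highest of the 6, and the second Non-transduced + Dox array, of cells without the transgene, came next. Whether the signal came from the transgene, the cells' own gene or both was not tested. The mean log2 signal of 11 myoblast and myotube markers, Myod1 among them, was 14.46 and 14.71 on the MyoD + Dox arrays, 13.19 and 11.14 on the MyoD - Dox arrays and 13.15 and 14.70 on the Non-transduced + Dox arrays. The second MyoD - Dox array was lowest by this mean. By the same mean, the second Non-transduced + Dox array stood with the MyoD + Dox arrays rather than with its own partner. Mef2c and Myf5, named after their values were seen, did not follow the mean on that array. Mef2c was 10.18 and 7.96 in Non-transduced + Dox cells against 12.76 and 13.28 in MyoD + Dox cells. Myf5 was 9.48 and 9.14 against 8.08 and 7.89. In MyoD + Dox against MyoD - Dox cells 10 of the 11 markers were higher and Myf5 was 3.61-fold lower (adjusted p = 0.670 from limma). The Non-transduced + Dox pair lay at least 2-fold apart in 15% of all genes, against 3.79% for the MyoD - Dox pair and 3.02% for the MyoD + Dox pair. None of 6 leukocyte, 4 endothelial and 4 adipocyte markers was above background on any array, and of 5 osteoblast and chondrocyte markers only Acan was, on 1 array. In bulk RNA of this kind, fewer cells of a type and less RNA per cell cannot be told apart.

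The first question was which integrin subunits differed when the transgene was induced. In MyoD + Dox against MyoD - Dox cells the laminin-binding α7 and α6 subunits were the higher ones, by 5.12-fold and 3.01-fold, while α3, which also binds laminin, was 1.87-fold lower. The β1 subunit that all 3 pair with was 1.17-fold higher. None of these differences passed the test, which was limma on all 6 arrays with Benjamini-Hochberg adjustment over 19505 genes and a threshold of 0.05. Its SEs and intervals pool the spread of all 3 groups. A wide gap in the Non-transduced + Dox pair thus widens the intervals of this comparison, which does not include that pair.

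Itga7 encodes the α7 subunit. Its log2 signal was 13.10 and 13.08 in MyoD + Dox cells, 11.73 and 9.74 in MyoD - Dox cells and 11.65 and 13.33 in Non-transduced + Dox cells. The MyoD + Dox arrays were nearly equal and above both MyoD - Dox arrays, and they fell between the Non-transduced + Dox arrays. The group means were 13.09 ± 0.013 (SD, n = 2), 10.74 ± 1.41 and 12.49 ± 1.19 in that order of groups. The log2 difference between MyoD + Dox and MyoD - Dox cells was 2.36 (SE 0.79, 95% interval 0.40 to 4.31, unadjusted p = 0.0258 and adjusted p = 0.670 from limma). Without the second MyoD - Dox array, which was also the lowest in the muscle markers, the difference was 1.36, and without the first it was 3.36.

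Itga6 encodes α6, which takes part in laminin binding and is found on myoblasts. Its log2 signal was 11.77 and 10.93 in MyoD + Dox cells, 10.60 and 8.92 in MyoD - Dox cells and 10.42 and 11.13 in Non-transduced + Dox cells. Here too the MyoD + Dox arrays lay above both MyoD - Dox arrays, and 1 of them lay inside the range of the Non-transduced + Dox pair. The log2 difference from MyoD - Dox cells was 1.59 (SE 0.62, 95% interval 0.06 to 3.12, unadjusted p = 0.0437 and adjusted p = 0.670 from limma), and it was 0.75 without the second MyoD - Dox array and 2.43 without the first.

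Itga3 encodes α3, the partner of β1 in a laminin receptor best known from epithelium. Its log2 signal was 11.52 and 11.75 in MyoD + Dox cells, 12.05 and 13.03 in MyoD - Dox cells, and 12.14 and 9.24 in Non-transduced + Dox cells. The MyoD + Dox arrays lay below both MyoD - Dox arrays, but the Non-transduced + Dox pair spanned all but 1 of the other arrays, with a gap of 7.47-fold between its own members. The log2 difference between MyoD + Dox and MyoD - Dox cells was -0.91 (SE 0.92, 95% interval -3.19 to 1.37, adjusted p = 0.793 from limma), and it was -0.42 without the second MyoD - Dox array and -1.40 without the first.

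Itgb1 encodes β1, the shared partner of most α subunits here. Its log2 signal was 16.19 and 16.09 in MyoD + Dox cells, 16.06 and 15.77 in MyoD - Dox cells and 16.07 and 16.04 in Non-transduced + Dox cells. The MyoD + Dox arrays were the highest of the 6, by a small margin over the Non-transduced + Dox arrays. The log2 difference from MyoD - Dox cells was 0.23 (SE 0.20, 95% interval -0.27 to 0.73, adjusted p = 0.765 from limma), an interval that does not reach a 2-fold difference in either direction.

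**Figure D1:**
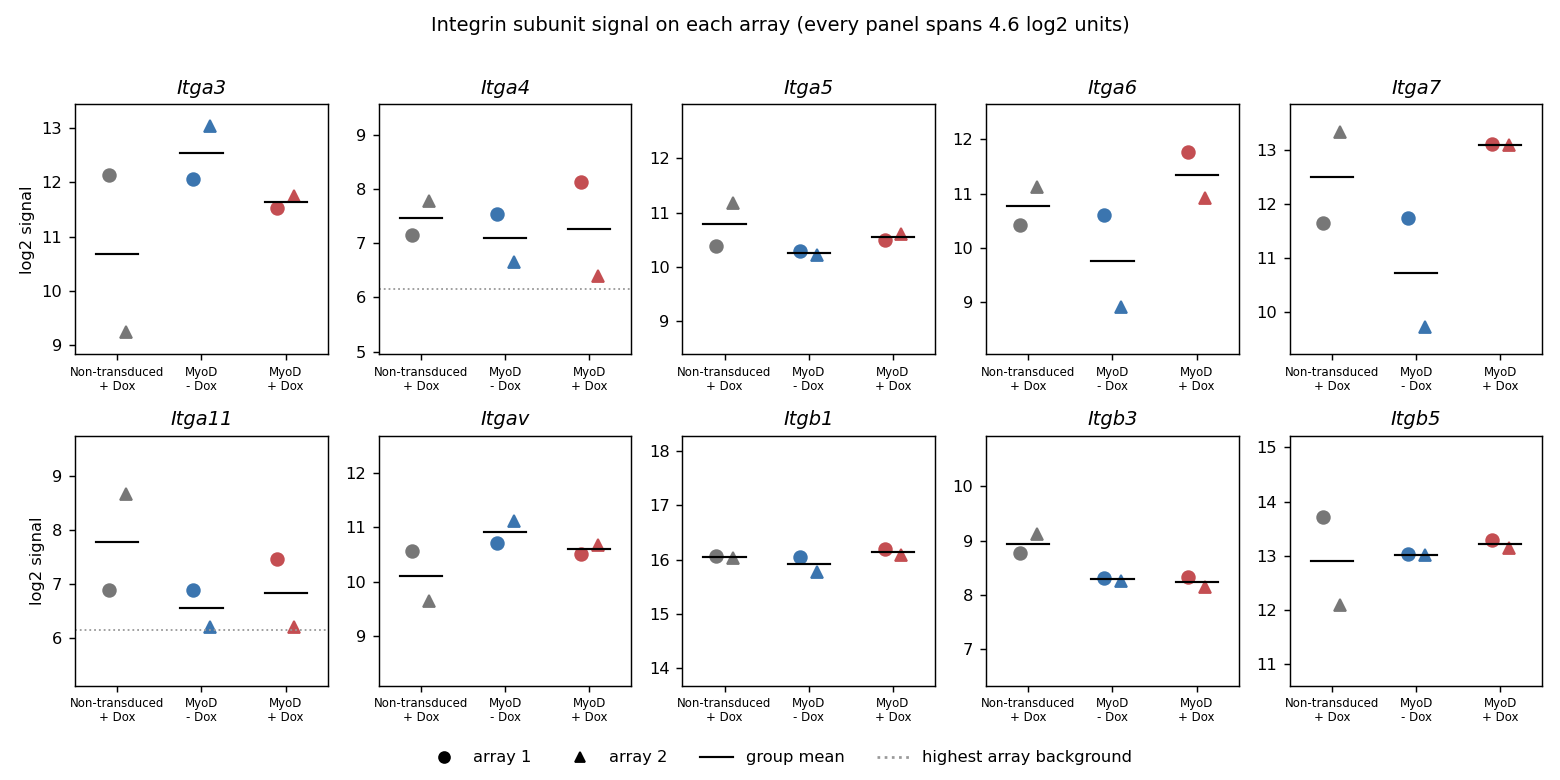
Log2 signal (vertical axis) of each of the 10 integrin subunit genes on each array, by group along the horizontal axis, with a dot for each array and a bar at each group mean. Itga7 sits at 13.10 and 13.08 in MyoD + Dox cells against 11.73 and 9.74 in MyoD - Dox cells, and Itga3 at 12.14 and 9.24 spans the widest range within a group.

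Among the fibronectin and VCAM-1 receptors, the α5 subunit was slightly higher and the α4 subunit was not separated between the groups. The log2 signal of Itga5, the α5 subunit of the classical fibronectin receptor, was 10.50 and 10.61 in MyoD + Dox cells, 10.30 and 10.21 in MyoD - Dox cells and 10.39 and 11.17 in Non-transduced + Dox cells. These values gave a log2 difference of 0.30 between MyoD + Dox and MyoD - Dox cells (95% interval -0.43 to 1.03, adjusted p = 0.785 from limma). The arrays of those groups did not overlap, although the whole distance between them was smaller than the gap within the Non-transduced + Dox pair. Itga4, the α4 subunit that binds VCAM-1 on neighboring cells, had a log2 signal of 8.13 and 6.39 in MyoD + Dox cells, 7.53 and 6.66 in MyoD - Dox cells and 7.15 and 7.77 in Non-transduced + Dox cells. The MyoD + Dox pair held both the highest and the lowest of the 6 values, so that the log2 difference of 0.16 from MyoD - Dox cells (95% interval -1.39 to 1.71, adjusted p = 0.953 from limma) was far below the spread between replicates.

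The collagen receptor subunit α11, encoded by Itga11, came closest to background and was not separated either. Its log2 signal was 7.46 and 6.20 in MyoD + Dox cells, 6.90 and 6.22 in MyoD - Dox cells and 6.89 and 8.66 in Non-transduced + Dox cells, and the lowest value exceeded the background of its array by only 0.049. The log2 difference between MyoD + Dox and MyoD - Dox cells was 0.28 (95% interval -1.44 to 1.99, adjusted p = 0.917 from limma). The second Non-transduced + Dox array stood highest for this gene.

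Of the RGD-binding subunits, Itgav, Itgb5 and Itgb3 differed by at most 1.25-fold on induction. Itgav, which encodes αv, had a log2 signal of 10.51 and 10.68 in MyoD + Dox cells, 10.72 and 11.13 in MyoD - Dox cells and 10.57 and 9.64 in Non-transduced + Dox cells. Its MyoD + Dox arrays lay just below both MyoD - Dox arrays, with a log2 difference of -0.32 (95% interval -1.20 to 0.55, adjusted p = 0.807 from limma). Itgb5, which encodes β5, a vitronectin receptor subunit, had a log2 signal of 13.28 and 13.15 in MyoD + Dox cells, 13.03 and 13.02 in MyoD - Dox cells and 13.72 and 12.10 in Non-transduced + Dox cells. All 4 transduced arrays lay within the range of the Non-transduced + Dox pair, and the log2 difference on induction was 0.19 (95% interval -1.07 to 1.45, adjusted p = 0.923 from limma). That interval includes the spread of the Non-transduced + Dox pair, with an SD of 1.14 against 0.093 in MyoD + Dox and 0.0052 in MyoD - Dox cells. Itgb3, which encodes β3, the partner of αv in the receptor also found on osteoclasts and, with another α subunit, on platelets, had a log2 signal of 8.34 and 8.14 in MyoD + Dox cells, 8.32 and 8.25 in MyoD - Dox cells and 8.78 and 9.11 in Non-transduced + Dox cells. It was lower on all 4 transduced arrays than on both Non-transduced + Dox arrays, and the log2 difference on induction was -0.05 (95% interval -0.58 to 0.48, adjusted p = 0.962 from limma).

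Over the 10 subunits, limma called 0 in MyoD + Dox against MyoD - Dox cells at the adjusted threshold, where it called 0% of all genes, and the lowest adjusted p of any gene was 0.670. An unadjusted p under 0.05 was reached by 2 subunits, Itga7 and Itga6, both higher, and by 7.41% of all genes, of which those higher made up 4.22% and those lower 3.19%. The methods' t-test, which they name for 2 groups but not specifically for the arrays, gave 0 of the 10 at that unadjusted threshold. It gave 8.73% of all genes. Both MyoD + Dox arrays lay above both MyoD - Dox arrays for 5 subunits (Itga5, Itga6, Itga7, Itgb1 and Itgb5) and below both for 2 (Itga3 and Itgav), so that 7 of the 10 did not overlap, and 48.5% of all genes did not overlap, 23.8% of them higher and 24.8% lower as shares of all genes. The median log2 difference was 0.21 over the 10 subunits and -0.0092 over all genes. With 2 arrays against 2, an exact permutation test cannot give a two-sided p below 0.333. Without the second MyoD - Dox array the log2 differences were 1.36 for Itga7 and 0.75 for Itga6, and without the first 3.36 and 2.43. Without the first MyoD + Dox array they were 2.35 and 1.17, and without the second 2.37 and 2.01. Each of these fits leaves 1 array in a group.

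**Figure D2:**
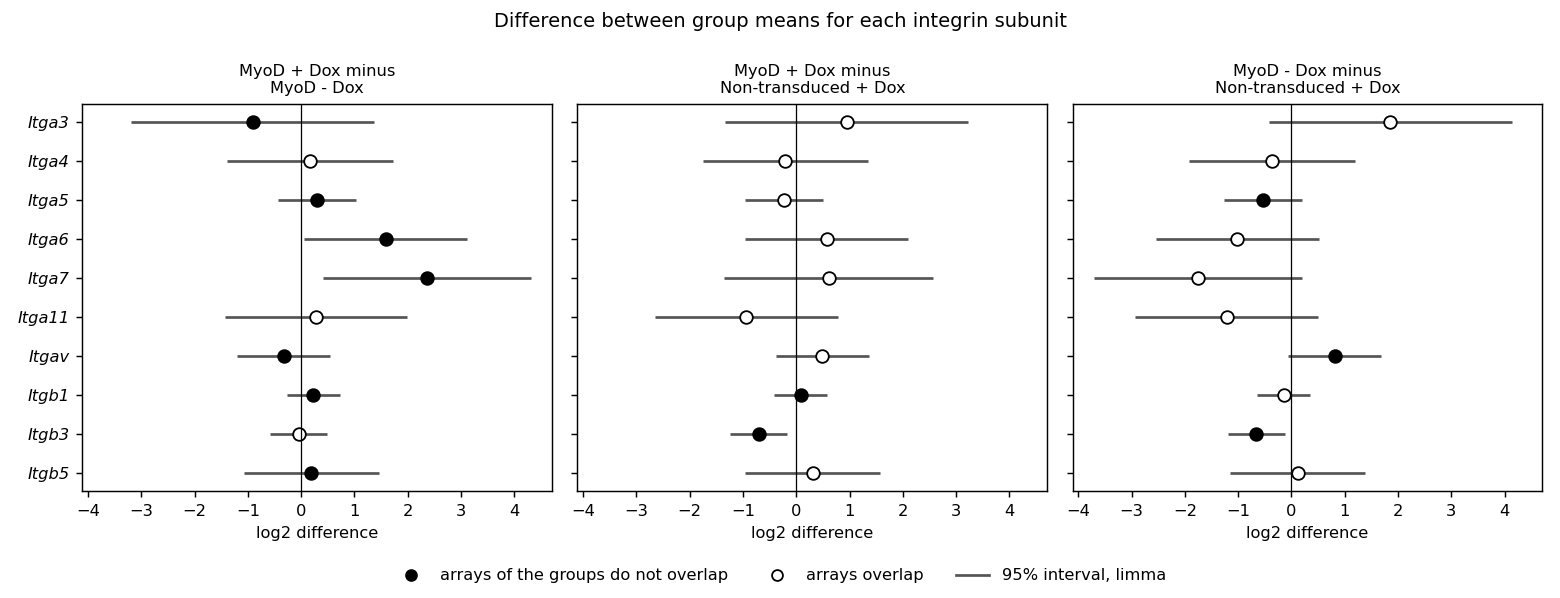
Log2 difference (horizontal axis) of each of the 10 integrin subunits in the 3 comparisons, with bars for the 95% interval from limma on 6 arrays. In MyoD + Dox minus MyoD - Dox cells the intervals of Itga7, 0.40 to 4.31, and Itga6, 0.06 to 3.12, are the ones that leave out 0, and in both comparisons with Non-transduced + Dox cells it is that of Itgb3.

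The second question was how induced cells compared with cells that never carried the virus but received the same drug, at a dose not named for them. These groups differed in virus, selection and the MyoD transgene together. Here β3 was the only subunit with an unadjusted p under 0.05, and it did not pass the adjusted threshold. Itgb3 was lower in MyoD + Dox than in Non-transduced + Dox cells by a log2 difference of -0.71 (SE 0.21, 95% interval -1.23 to -0.18, unadjusted p = 0.0176 and adjusted p = 0.99998 from limma), or 1.63-fold. The comparison of MyoD - Dox with Non-transduced + Dox cells, which shares the Non-transduced + Dox arrays and asks what differed between them without induction, gave -0.66 (SE 0.21, 95% interval -1.19 to -0.13, unadjusted p = 0.0229 and adjusted p = 0.637 from limma). Its arrays did not overlap in either comparison, and the group order was Non-transduced + Dox at 8.94 ± 0.24 (SD, n = 2), MyoD - Dox at 8.29 ± 0.045 and MyoD + Dox at 8.24 ± 0.14, of which the last pair did not differ beyond their spread.

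The remaining subunits had no unadjusted p under 0.05 against Non-transduced + Dox cells. For MyoD + Dox minus Non-transduced + Dox cells, limma called 0 of the 10 at the adjusted threshold (0% of all genes), and 1, which was lower, had an unadjusted p under 0.05 (2.94% of all genes, with 1.6% higher and 1.34% lower). The methods' t-test gave 0 of the 10 (3.6% of all genes). The arrays did not overlap for Itgb1, which was higher with a log2 difference of 0.08, and for Itgb3 (28.2% of all genes did not overlap, with 13.9% higher and 14.3% lower). The median over the 10 was 0.20, against 0.0012 over all genes. The laminin receptor subunits had log2 differences of 0.60 for Itga7, 0.57 for Itga6 and 0.95 for Itga3, with adjusted p = 0.99998 for each from limma, so that the MyoD + Dox level of α7 was not distinguished from that of Non-transduced + Dox cells. Without the first Non-transduced + Dox array 6 of the 10 had an unadjusted p under 0.05, as did 13.8% of all genes in that fit, and without its second array or without the second MyoD + Dox array 0 had one.

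For MyoD - Dox minus Non-transduced + Dox cells, limma again called 0 of the 10 (0% of all genes). Again 1, which was lower, had an unadjusted p under 0.05 (6.22% of all genes, with 3.11% higher and 3.12% lower). By the methods' t-test 0 had one (4.22% of all genes). The arrays did not overlap for Itgav, which was higher by a log2 difference of 0.81 (adjusted p = 0.637 from limma), and for Itga5 and Itgb3, which were lower (38.4% of all genes did not overlap, with 19.2% higher and 19.2% lower). The values were -1.75 for Itga7, -1.02 for Itga6 and 1.86 for Itga3, each with overlapping arrays, and the median over the 10 was -0.45 against -0.00068 over all genes. Without the first Non-transduced + Dox array limma called Itga3 (3.31) and Itgav (1.28) at the adjusted threshold, together with 2191 of all genes, and the lone remaining array of that group was then assumed to vary like the others. Without the second Non-transduced + Dox array it called 0. At an unadjusted p the count of subunits was 7 without the first Non-transduced + Dox array, in a fit where 25.8% of all genes had one. Leaving out the first MyoD - Dox array moved the median log2 difference over the 10 subunits to -0.63, and leaving out the second moved it to -0.088.

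The subunits also differed in how far the arrays of 1 group lay apart. Between the Non-transduced + Dox arrays 4 of the 10 subunits lay at least 2-fold apart: Itga3, Itga11, Itga7 and Itgb5, against 15% of all genes. The median gap of that pair was 0.85 on the log2 scale over the 10 subunits and 0.35 over all genes, of which 9257 were below background on all arrays. Itga7 and Itga11 were higher on the second array of the pair, by 1.68 and 1.77 on the log2 scale, and Itga3 and Itgb5 were lower by 2.90 and 1.62. In MyoD - Dox cells 2 of the 10, Itga7 and Itga6, lay at least 2-fold apart (3.79% of all genes), both lower on the second array, by 2.00 and 1.68. In MyoD + Dox cells Itga4 and Itga11 did (3.02% of all genes), while the Itga7 gap was 0.018.

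Array by array, Itga7 and Itga3 were set beside the muscle markers, a choice that no rule had set. The muscle marker mean, relative to its own mean over the 6 arrays, was -0.41 and 1.15 in Non-transduced + Dox, -0.37 and -2.42 in MyoD - Dox and 0.90 and 1.15 in MyoD + Dox cells. Itga7 on the same scale was -0.46 and 1.22, -0.37 and -2.37, and 0.996 and 0.98. Itga3 was 0.52 and -2.39, 0.43 and 1.41, and -0.10 and 0.13. Itga7 and the marker mean were thus high and low on the same arrays, and Itga3 was lowest where α7 was highest and highest where α7 was lowest. Itga6 lay above and below its own mean on the same arrays as the marker mean. Itgb5 and Itgb3 did not. Itgb5 was 0.67 and -0.95, -0.022 and -0.030, and 0.23 and 0.10. Itgb3 was 0.29 and 0.62, -0.17 and -0.24, and -0.15 and -0.35. The second Non-transduced + Dox array was the highest of the 6 for 4 subunits and the lowest for 3, and the second MyoD - Dox array was the lowest for 4 and the highest for 2. The part of muscle marker content in the differences of Itga7 and Itga6 was not tested.

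**Figure D3:**
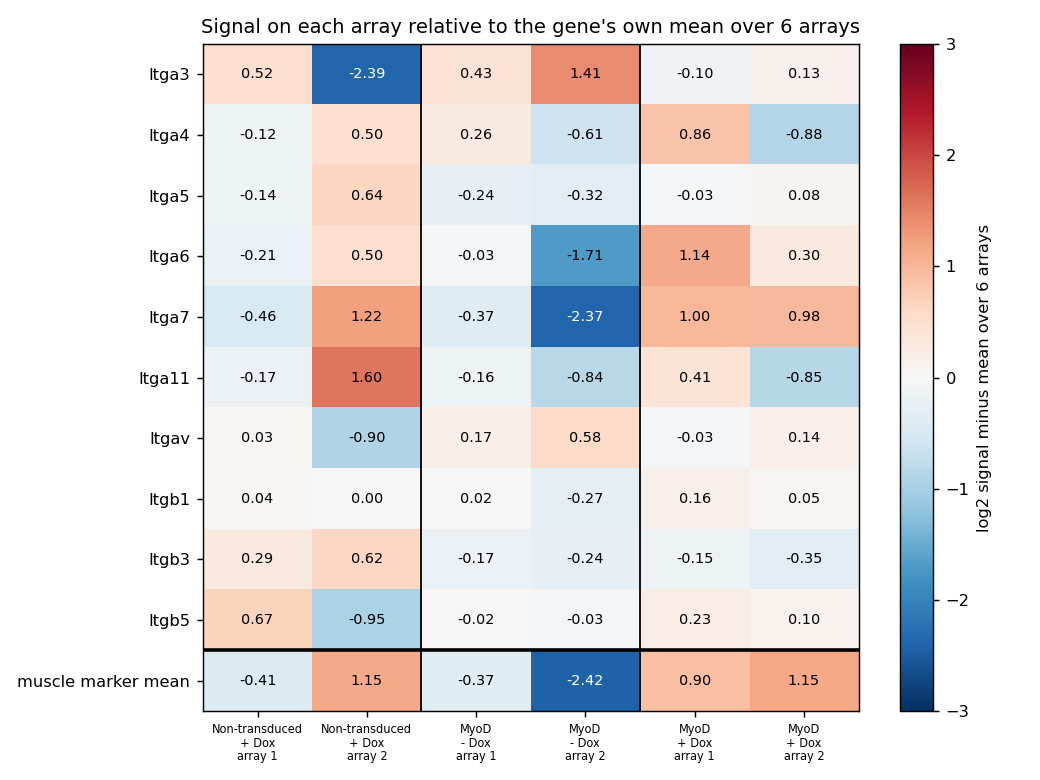
Log2 signal of each integrin subunit, and the mean of 11 muscle markers in the bottom row, on each array relative to the same gene's mean over 6 arrays, with red above and blue below that mean. The second Non-transduced + Dox and the second MyoD - Dox arrays carry the strongest colors, at 1.22 and -2.37 for Itga7 and -2.39 and 1.41 for Itga3.

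Promoter sequences were looked at for E-boxes (CANNTG, the motif that MyoD and other basic helix-loop-helix proteins bind, which reads as the same motif on either strand), because the transgene encodes such a protein. RefSeq promoters on GRCm38.p6, each from 250 bases before to 50 after a start site, were matched for 7 of the 10 subunits, with 8 windows in all. Itga6, Itga7 and Itgb3 had no entry. The 250 upstream bases of 2 subunits whose MyoD + Dox and MyoD - Dox arrays did not overlap are shown, 5′ to 3′, with E-boxes in capitals: Itga3, which was lower, at chr11:95076715-95076964 on the reverse strand, and Itgb5, which was higher, at chr16:33829415-33829664 on the forward strand.
Itga3: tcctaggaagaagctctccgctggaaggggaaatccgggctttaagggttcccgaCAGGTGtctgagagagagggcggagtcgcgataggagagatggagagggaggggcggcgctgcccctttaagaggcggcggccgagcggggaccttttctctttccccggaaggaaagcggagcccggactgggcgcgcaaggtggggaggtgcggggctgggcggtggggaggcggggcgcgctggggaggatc
Itgb5: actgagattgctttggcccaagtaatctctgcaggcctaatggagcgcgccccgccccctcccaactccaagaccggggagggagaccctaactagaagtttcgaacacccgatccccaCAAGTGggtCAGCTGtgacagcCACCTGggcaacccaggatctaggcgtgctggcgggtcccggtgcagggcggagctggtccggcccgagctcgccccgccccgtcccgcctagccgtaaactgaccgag
The Itga3 stretch holds 1 E-box, CAGGTG at 195 bases before the start. The Itgb5 stretch holds 3, with CAAGTG at 131 bases before the start, then CAGCTG at 122 bases before it, and the last one, CACCTG, at 109 bases before it. Of the 8 windows 6 held a CANNTG (75%), as did 72.3% of 32851 promoters of the same length. CAGCTG, a form of CANNTG, was in 3 of 8 (37.5%) against 16.3% of all, and CAGGTG, which is also a form of it and was read on both strands, in 3 of 8 (37.5%) against 20.2%. A second start of Itga3 had CACATG 221 bases before it. Itga4 had a CAGCTG 125 bases before its start, Itga11 a CAGGTG 121 bases before it and Itga5 a CATCTG 66 bases before it with a CAGCTG after it, while the windows of Itgav and Itgb1 held none. These are matches of letters in a short window and not sites of binding.

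Of the 16 other integrin subunit genes listed, 14 had a named probe set, and 10 of those were below background on every array, among them the leukocyte subunits Itgal, Itgam, Itgax and Itgb2. The remaining ones were Itgb6, Itgb8, Itgb7 and Itga2b, above background on at least 1 array. Itgb6, which encodes the partner of αv in a receptor known from epithelium that activates latent TGF-β, had a log2 signal of 10.82 and 11.67 in MyoD + Dox cells, 8.93 and 7.88 in MyoD - Dox cells and 9.11 and 11.59 in Non-transduced + Dox cells. It was thus low on the same 3 arrays as Itga7, with a log2 difference of 2.84 on induction (SE 0.85, unadjusted p = 0.0167 and adjusted p = 0.670 from limma), or 7.15-fold. Itgb8, another partner of αv that activates latent TGF-β, went the other way. It had a log2 signal of 7.49 and 7.40 in MyoD + Dox cells, 8.02 and 7.95 in MyoD - Dox cells and 7.36 and 7.56 in Non-transduced + Dox cells, so the MyoD - Dox arrays stood above the other 4. The log2 difference on induction was -0.54 (SE 0.19, unadjusted p = 0.0326 and adjusted p = 0.670 from limma). By limma 0 of the 14 passed the adjusted threshold in any comparison. On induction 1 was higher, Itgb6, and 1 lower, Itgb8, with an unadjusted p under 0.05 (4.22% and 3.19% of all genes). Both MyoD + Dox arrays lay above both MyoD - Dox arrays for 3 of the 14 and below for 4, genes below background included (23.8% and 24.8% of all genes).

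The proteins that couple integrins to actin were next. Of 34 activators, adaptors and inhibitors listed 32 were measured, and limma called 0 of them in any comparison. An unadjusted p under 0.05 on induction came with 3 higher and 0 lower genes, 13 had both MyoD + Dox arrays above both MyoD - Dox arrays and 8 had both below (4.22%, 3.19%, 23.8% and 24.8% of all genes, in that order), and the median log2 difference was 0.14. Itgb1bp2, which encodes melusin, a muscle protein that binds the β1 tail, had a log2 signal of 11.52 and 11.81 in MyoD + Dox cells, 9.28 and 7.05 in MyoD - Dox cells and 9.52 and 12.08 in Non-transduced + Dox cells. Like Itga7 it was lowest on the second MyoD - Dox array and highest on the second Non-transduced + Dox array, and its difference on induction was 3.502 on the log2 scale, or 11.3-fold (unadjusted p = 0.0148, adjusted p = 0.670 from limma). Without the second MyoD - Dox array the log2 difference was 2.39, and without the first it was 4.62. Parvb, which encodes β-parvin of the complex with integrin-linked kinase, was 2.17-fold higher, and Pxn, which encodes the focal adhesion scaffold paxillin, was 1.77-fold higher, each with adjusted p = 0.670 from limma.

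Ligands were read in 2 lists. Of 14 laminin and basement membrane genes 13 were measured, and on induction limma called 0, and 2 higher genes and 1 lower gene had an unadjusted p under 0.05 (4.22% and 3.19% of all genes). Both MyoD + Dox arrays lay above both MyoD - Dox arrays for 4 of the 13 and below for 4 (23.8% and 24.8% of all genes), and the median log2 difference was 0.10. Npnt, which encodes nephronectin, known as a ligand of α8β1, had a log2 signal of 15.69 and 16.00 in MyoD + Dox cells, 13.77 and 11.76 in MyoD - Dox cells and 13.75 and 15.36 in Non-transduced + Dox cells. The gene for the α8 subunit, Itga8, was among those below background on every array. Npnt was 8.45-fold higher on induction (adjusted p = 0.670 from limma), a log2 difference of 3.08 that was 2.07 without the second MyoD - Dox array and 4.09 without the first. Lama4, which encodes the laminin α4 chain, was 3.61-fold lower, with a log2 signal of 8.03 and 7.06 in MyoD + Dox, 9.40 and 9.40 in MyoD - Dox and 7.94 and 8.05 in Non-transduced + Dox cells (unadjusted p = 0.00182, adjusted p = 0.670 from limma). Its MyoD - Dox arrays were thus the highest of the 6, as with Itgb8. Lamb3, which encodes the laminin β3 chain, had a log2 signal of 7.49 and 7.67 in MyoD + Dox and 6.11 and 4.61 in MyoD - Dox cells. As only 1 of its MyoD - Dox arrays was above background, no fold is given.

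Of 18 genes for fibronectin, RGD ligands and collagens 16 were measured, and on induction limma called 0, while 0 higher genes and 1 lower gene had an unadjusted p under 0.05 (4.22% and 3.19% of all genes). The MyoD + Dox arrays lay above for 2 and below for 8 (23.8% and 24.8% of all genes), and the median log2 difference was -0.41. Postn, which encodes periostin, a matrix protein bound by αv integrins, had a log2 signal of 11.51 and 9.34 in MyoD + Dox, 12.36 and 12.53 in MyoD - Dox and 13.09 and 12.91 in Non-transduced + Dox cells. It was the lowest in both MyoD + Dox arrays, 4.06-fold below MyoD - Dox cells (adjusted p = 0.670 from limma). The log2 difference of -2.02 was -0.93 when the second MyoD + Dox array was left out and -3.11 when the first was. Vcam1, the cell-surface ligand of α4β1, and Ccn2, a matrix protein bound by integrins, are given because the Non-transduced + Dox pair split on them, a choice made after their values were seen. Vcam1 had a log2 signal of 15.14 and 9.38 on that pair and Ccn2 8.73 and 14.37, while the 4 transduced arrays lay between 12.73 and 15.11 for Vcam1 and between 8.997 and 9.33 for Ccn2. The same array that was lowest in Itga3 was thus lowest in Vcam1 and highest in Ccn2.

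All 12 membrane partners of integrins were measured, and on induction limma called 0, while 2 higher and 0 lower genes had an unadjusted p under 0.05 (4.22% and 3.19% of all genes). The MyoD + Dox arrays lay above for 3 and below for 5 (23.8% and 24.8% of all genes), and the median log2 difference was -0.10. Cav3, which encodes the muscle caveolin, had a log2 signal of 8.73 and 10.11 in MyoD + Dox cells and 9.52 on the second Non-transduced + Dox array. It was below background on both MyoD - Dox arrays and on the first Non-transduced + Dox array. Against the MyoD - Dox arrays, for which only a bound could be set, taken as the background of each array, it was at least 10.5-fold higher (adjusted p = 0.670 from limma, and 0.0380 when only the 4 arrays of this comparison were fitted, with 0.0380 to 0.999 over all alternatives). Adam12, a membrane protease of fusing myoblasts that binds integrins, was 2.19-fold higher (adjusted p = 0.670 from limma), with 7.84 and 8.51 against 6.82 and 7.27 on the log2 scale, and 7.97 and 8.83 in Non-transduced + Dox cells.

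**Figure D4:**
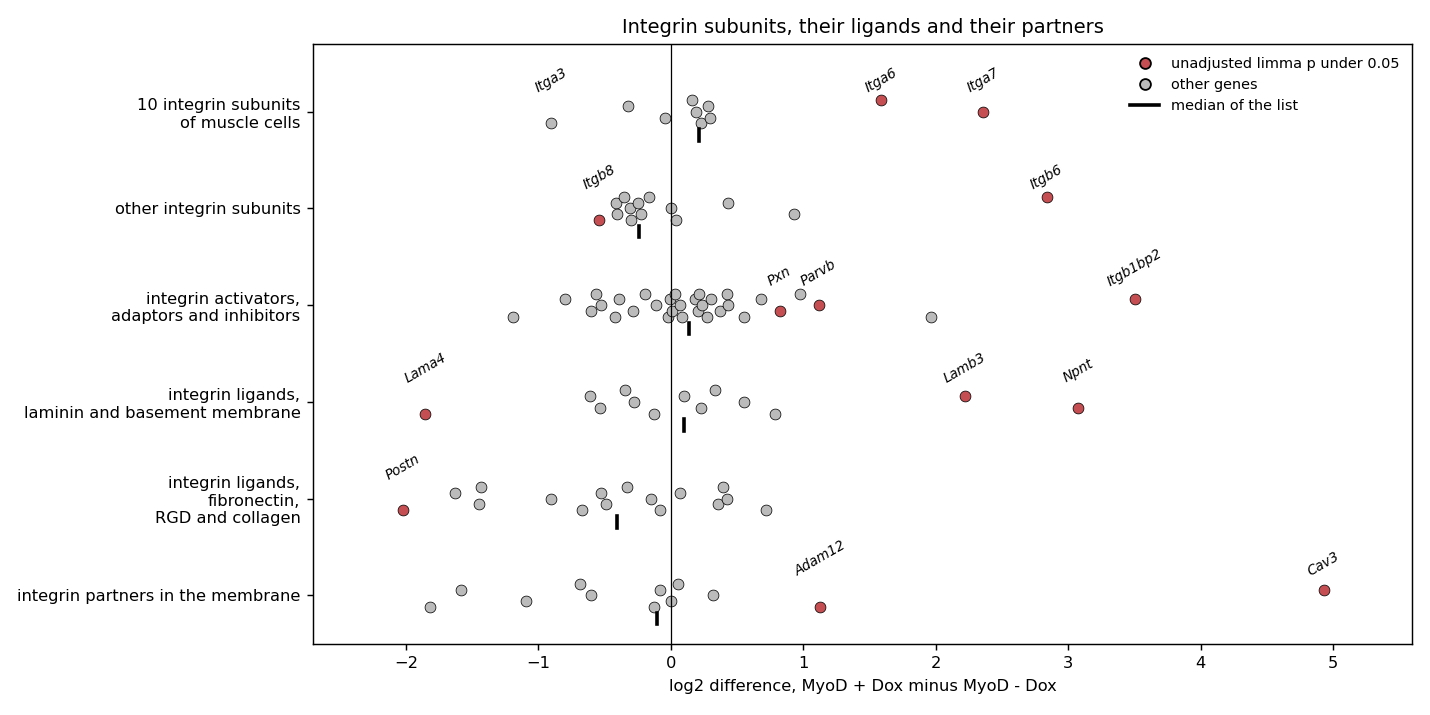
Log2 difference of MyoD + Dox minus MyoD - Dox cells (horizontal axis) for the 10 integrin subunits and for 5 related gene lists (rows), with a point for each gene, red for an unadjusted limma p under 0.05, and a black bar at each list's median. The medians lie between -0.41 and 0.21, and the point of Cav3 is a fitted value for which MyoD - Dox cells give only a bound.

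Against Non-transduced + Dox cells limma called 0 genes of these lists in either comparison. At an unadjusted limma p under 0.05, MyoD + Dox cells had 1 of 13 laminin and basement membrane genes higher, Lamb1. Lower were Postn, 1 of 16 fibronectin, RGD and collagen genes, and Cspg4, 1 of 12 membrane partners. Of all genes, 1.6% were higher and 1.34% lower in that comparison. MyoD - Dox cells had Itgb8, 1 of 14 other subunits, and Lama4, Lamb1 and Lamb2, 3 of the 13, higher. Lower were Itgb1bp2 (1 of 32 activators, adaptors and inhibitors) and Lamb3 (1 of the 13). Tnc and Col5a1 (2 of the 16) and Adam12 and Cspg4 (2 of the 12) were lower too. Of all genes, 3.11% were higher and 3.12% lower there. Lamb1 and Lamb2 encode laminin β chains, Tnc encodes tenascin C, Col5a1 a fibrillar collagen chain and Cspg4 the NG2 proteoglycan. Lamb1 was thus among the higher genes and Cspg4 among the lower ones in both transduced groups, in comparisons that share the Non-transduced + Dox arrays.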

How the data were processed

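RNA of differentiated C2C12 cells was measured on 6 Clariom S mouse arrays, 2 in each of 3 groups taken from the submitters' labels. The labels name Trizol extraction and the methods the RNeasy kit. The authors deposited 1 table of signal intensity per probe set, on a linear scale from 4.37 to 888220, with array medians of 45.4 to 48.4. Affymetrix Expression Console is named, without a version, in the submitters' processing notes, and the methods name the Transcriptome Analysis Console with signal space transformation. Which program wrote the table, and on what genome build, the sources used here do not state. The number of arrays limits the precision.

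Log2 was taken with no further normalization and no filter. Of 28846 probe sets, 19572 had 1 gene symbol in the platform annotation, 0 had several and 9274 had none. A RefSeq gene was matched by Entrez identifier for all 19572. For the 55 genes with several probe sets the one with the highest mean was kept, which left 19505 genes. The background of an array was the 90th percentile of 23 background probe sets (6.01 to 6.15 on the log2 scale), above which lay 47.96% to 48.94% of genes. Tests used limma 3.58.1 in R 4.3.3 (lmFit, then eBayes, with two-sided p) over the 6 arrays together, with 3 residual degrees of freedom. The same fit was also run on simulated data with known changes, whose spread was taken from these arrays.

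The 10 subunits and all gene lists were chosen with earlier results of these data known. The other lists held integrin subunits, activators, adaptors and inhibitors, laminin and basement membrane ligands, fibronectin, RGD and collagen ligands, membrane partners and markers of 5 cell types. Genes were named by a rule: all 10 subunits, Myod1, and from each list up to 4 genes with the largest difference on induction among those past the adjusted threshold or, as 0 passed, past an unadjusted limma p under 0.05, above background on both arrays of the higher group. Genes past an unadjusted p in the other comparisons were named beside their counts, after their values were seen. Tried in place of these choices were leaving out each array in turn, the methods' t-test, signals raised to the background, averaging the probe sets of a gene, a block for the replicate number, a fit of only the 4 arrays compared, trend and robust options of eBayes, dropping the lowest 40% of genes, median-centred arrays and quantile normalization. A crossed pairing was added after seeing the data.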

Additional observations from a re-analysis of the deposited data

How the results depend on the processing

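Of 460 alternative values of the 30 subunit differences, 444 kept their direction and their side of the adjusted threshold, 14 turned direction and 2 passed the threshold. All 16 of those came from leaving out 1 array. Only quantile normalization, median-centred arrays and leaving out an array of a compared group could move a subunit's difference. The other settings gave the same difference by construction, so many of the kept directions were fixed in advance. On leaving out each array, the log2 difference between MyoD + Dox and MyoD - Dox cells ranged from -0.71 to 1.03 for Itga4, -0.35 to 0.91 for Itga11 and -0.14 to 0.050 for Itgb3. Between MyoD + Dox and Non-transduced + Dox cells it ranged from -0.50 to 2.40 for Itga3, -1.07 to 0.67 for Itga4, -0.62 to 0.16 for Itga5, -0.24 to 1.45 for Itga7 and -0.50 to 1.12 for Itgb5. Between MyoD - Dox and Non-transduced + Dox cells it ranged from -0.80 to 0.071 for Itga4, -0.29 to 0.00054 for Itgb1 and -0.69 to 0.92 for Itgb5. The median over the 10 subunits ranged from -0.0072 to 0.36, from -0.068 to 0.39 and from -0.75 to -0.088 in these comparisons, taken in the same order. The count of subunits called ranged from 0 to 2 in the last comparison. The count of subunits with an unadjusted p under 0.05 ranged from 0 to 3, from 0 to 6 and from 0 to 7, and all genes called from 0 to 15, from 0 to 169 and from 0 to 2191. A fit without an array leaves 1 array in a group or draws the spread from fewer groups.

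With the 4 arrays of a comparison alone, limma called 15 genes in MyoD + Dox against MyoD - Dox cells, and 3256 in place of 1446 had an unadjusted p under 0.05. In MyoD - Dox against Non-transduced + Dox cells that setting gave 658 in place of 1214. Leaving out the lowest 40% of genes, which leaves 11703 tested, gave 882, 262 and 699 genes at an unadjusted p in place of 1446, 573 and 1214, and 1 of the 10 subunits on induction. With signals raised to the background, which moved the median of all genes to 0.10, 0 of the 10 had an unadjusted p under 0.05 on induction (5.98% of all genes). The methods' t-test gave 0 subunits in each comparison, with 8.73%, 3.6% and 4.22% of all genes. It gave 1 gene after Benjamini-Hochberg adjustment in MyoD + Dox against Non-transduced + Dox cells. The cause of these shifts was not tested. Same-numbered arrays had deviations that correlated at -0.054, 0.41 and -0.34 in the 3 comparisons, so the numbers were not taken to pair them. With the replicate number as a block limma called 0 genes in each comparison, and no call changed. An unadjusted p under 0.05 then came with 2, 1 and 1 subunits (6.61%, 2.64% and 5.69% of all genes). A crossed pairing, chosen after seeing the data, called 0 genes and gave 5 subunits, and 9% of all genes, with an unadjusted p under 0.05 in MyoD - Dox against Non-transduced + Dox cells. The number of arrays, and for Itga11 and Itga4 a signal near background, limit what can be separated.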
